A study of Mus musculus with 56 samples.

Results

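The 37 genes described here encode the autophagy and lysosome machinery: the TFEB family of transcription factors, lysosomal membrane proteins, lysosomal enzymes, subunits of the proton pump, and the proteins that start, build and fill autophagosomes. They were listed by name for their function and make up 37 of the 47937 genes listed in the deposited counts. RNA was sequenced from mouse CD4+ T cells that had been activated and driven for 4 days towards TH1, TH2, TH17 or regulatory T (Treg) fates. The study deleted either Odc, whose enzyme makes the polyamine precursor putrescine, or Dohh, whose enzyme finishes the polyamine-derived amino acid hypusine on the translation factor eIF5A, and set each against wild-type (WT) cells. Libraries labelled Odc-/- came from mice with a floxed Odc gene and a Cre transgene driven by the CD4 promoter, those labelled Dohh-/- from mice with floxed Dohh and the same Cre, and WT cells lacked Cre, so the transgene itself is present only on the deleted side. Every group was of the C57BL/6 background, was taken from spleen and lymph nodes by negative selection, and received anti-CD3, anti-CD28 and IL-2 beside its polarising cytokines. The Odc table held 4 WT and 4 Odc-/- libraries for each subset, except TH2 with 3 Odc-/- libraries, and in the Dohh table there were 3 WT and 3 Dohh-/- libraries for each subset.

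Autophagy encloses cytoplasm or organelles in a double membrane, the autophagosome, and delivers it to the lysosome, an acidic compartment filled with hydrolases. The ULK1 kinase complex starts the process, a class III PI3 kinase complex marks the membrane with a lipid that WIPI proteins read, and ubiquitin-like conjugation enzymes attach ATG8 proteins (the LC3 and GABARAP families) to the growing membrane, where cargo receptors bind. TFEB and its relatives switch on genes of lysosomes and autophagy when they are free to enter the nucleus, and synthesis of TFEB has been tied to hypusinated eIF5A in other lymphocytes.

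Total counts were 5905374 to 9145214 in the 31 Odc-table libraries and 6572148 to 12576933 in the 24 Dohh-table libraries, and levels are given as CPM, counts scaled to a common library size by TMM, in which 3 counts amount to 0.310 to 0.499 CPM and 0.226 to 0.473 CPM. A defining gene was checked in WT cells of 3 subsets: Tbx21 was at 119 to 205 CPM in TH1, Gata3 at 236 to 269 CPM in TH2 and Foxp3 at 393 to 639 CPM in Treg libraries of the Odc table, each the highest of the 4 subsets there and in the Dohh table. The targeted genes could not check the genotype labels. Odc1 was at 357 to 859.9 CPM in WT and 424 to 679.8 CPM in Odc-/- libraries, and Dohh at 31.5 to 45.9 CPM in WT and 45.2 to 148 CPM in Dohh-/- libraries, and the counts cover whole genes, exons outside any deleted stretch included. Genotypes are therefore given as labelled. Cd4 was at 661 to 968 CPM in WT and 22.1 to 79.7 CPM in Dohh-/- libraries, and at 441 to 1032 and 273 to 694 CPM in the Odc table, while Cd3e was at 186 to 261 and 98.1 to 326 CPM in WT and Dohh-/- libraries.

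Markers of other cells moved with genotype. The summed level of 10 macrophage and monocyte markers was 0.875 to 37.2 CPM in WT and 4.52 to 351 CPM in Odc-/- libraries, and 0.634 to 21.96 CPM in WT and 2.76 to 4689.8 CPM in Dohh-/- libraries, in which Itgam stayed at 0 counts in all 24 libraries of that table. The Dohh-/- libraries numbered 2 and 3 carried most of it, with sums of 94.6, 4689.8 and 1599.5 CPM over replicates 1 to 3 in TH17 and 80.4, 3178 and 1968 CPM in Treg cells. Sums of 10 basophil and mast cell markers were 6.67 to 50.9 CPM in WT against 29.9 to 365 CPM in Odc-/- and 5.10 to 25.8 against 72.2 to 1411 CPM in Dohh-/- libraries. Those of 8 B cell and antigen-presenting cell markers were 180.3 to 576 against 251 to 2054 CPM and 204 to 521 against 71.3 to 1949 CPM, and those of 6 CD8 T and NK cell markers 17.1 to 171 against 15.8 to 378 CPM and 23.99 to 124 against 50.5 to 581 CPM. The 5 erythroid markers summed to 0 to 3.07 CPM in WT against 0 to 2.83 CPM in Odc-/- and 0 to 1.36 against 2.31 to 54.5 CPM in Dohh-/- libraries, and 8 T cell markers to 2589 to 4508 against 1828 to 3680.1 CPM and 3878 to 4605 against 1818 to 3632 CPM. The part of these cells in the members' levels was not tested beyond leaving libraries out, and in bulk RNA fewer cells of a type cannot be told from less RNA in each. The Odc-/- libraries numbered 3 were highest in the macrophage marker sum in TH17 and Treg cells, whereas in TH1 cells the library numbered 1 was. The Odc-/- libraries numbered 3 and the Dohh-/- libraries numbered 2 and 3 were therefore left out in turn. Member calls that this ended or added, or moved by more than 1.5-fold, are given with their gene. Without Dohh-/- replicates 2 and 3 there is 1 Dohh-/- library left, taken to vary like the other groups.

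The members did not move one way, and most roles held genes that rose beside genes that fell. Atg3, an enzyme that joins ATG8 proteins to lipid, rose in all 8 comparisons of deleted with WT cells, and Ulk1, the initiating kinase, and Nbr1, a cargo receptor, fell in all 8. The calls of Ulk1 and Nbr1 passed under all alternatives run, whereas that of Atg3 passed under 6 of 17 in Odc-/- Treg cells and under 8 of 15 in Dohh-/- TH1 cells. In addition, Lamp1, Ctsd, Becn1, Atg5 and Atg7 rose in 7 comparisons and fell in none, and Mcoln1, Atg13, Wipi1, Wipi2 and Atg12 fell in 7 and rose in none. How many of all genes moved 1 way in 7 or 8 comparisons was not counted, so these counts have no share of all genes beside them. In each comparison 45.3% to 59.8% of all genes passed the test. The comparisons of the Odc table are not independent, because same-numbered libraries of 1 genotype deviated together across subsets. Of the 37 members, 7 rose in some comparisons and fell in others, and Tfe3 passed the test in none. A gene counts as risen or fallen at an adjusted p below 0.05 in edgeR's quasi-likelihood test, and a difference is that of the deleted minus the WT group on the log2 scale.

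In Odc-/- TH1 cells 8 rose and 14 fell of 37 members tested, against 29.1% of all genes tested higher and 27.7% lower (56.8% past the test in all), and 1 also moved more than 2-fold (all genes 21.4%). In Odc-/- TH2 cells 5 rose and 17 fell of 37 members tested, against 29.9% of all genes tested higher and 29.3% lower (59.2% past the test in all), and 7 also moved more than 2-fold (all genes 25.1%). In Odc-/- TH17 cells 13 rose and 10 fell of 37 members tested, against 25.6% of all genes tested higher and 22.2% lower (47.8% past the test in all), and 5 also moved more than 2-fold (all genes 15.6%). In Odc-/- Treg cells 11 rose and 10 fell of 37 members tested, against 32.9% of all genes tested higher and 26.9% lower (59.8% past the test in all), and 4 also moved more than 2-fold (all genes 24%). With both directions together, the members' shares of calls lay near those of all genes in TH1, TH2 and Treg cells, while in TH17 cells 62.2% of members passed. By direction they lay apart in TH2 cells, where 5 members rose and 17 fell, against 29.9% and 29.3% of all genes. They did so less in TH1 cells, where 8 rose and 14 fell, against 29.1% and 27.7%. These differences were not tested.

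In Dohh-/- TH1 cells 7 rose and 10 fell of 36 members tested, against 25.9% of all genes tested higher and 24.1% lower (50% past the test in all), and 4 also moved more than 2-fold (all genes 29.1%). Among Dohh-/- TH2 cells, 6 rose and 9 fell of 36 members tested, against 23.8% of all genes tested higher and 21.5% lower (45.3% past the test in all), and 4 also moved more than 2-fold (all genes 25.9%). For Dohh-/- TH17 cells, 12 rose and 8 fell of 36 members tested, against 27% of all genes tested higher and 24.9% lower (52% past the test in all), and 10 also moved more than 2-fold (all genes 31.4%). For Dohh-/- Treg cells, 12 rose and 9 fell of 36 members tested, against 28.4% of all genes tested higher and 25% lower (53.4% past the test in all), and 11 also moved more than 2-fold (all genes 32.7%). The members' median absolute log2 fold change was 0.31, 0.42, 0.37 and 0.32 in the Odc subsets TH1, TH2, TH17 and Treg, and 0.43, 0.45, 0.56 and 0.71 in the Dohh subsets, against 0.51, 0.58, 0.42 and 0.54 and 0.71, 0.62, 0.70 and 0.73 over all genes tested. Map1lc3b had 0 counts in all 24 Dohh libraries but 68.2 to 142 CPM over the Odc table's WT libraries. It is among 275 genes that had at least 500 counts in the Odc and no more than 5 in the Dohh data, with 13 genes the other way round. Why these genes differ between tables was not tested, and Map1lc3b was not tested in the Dohh table.

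**Figure D1:**
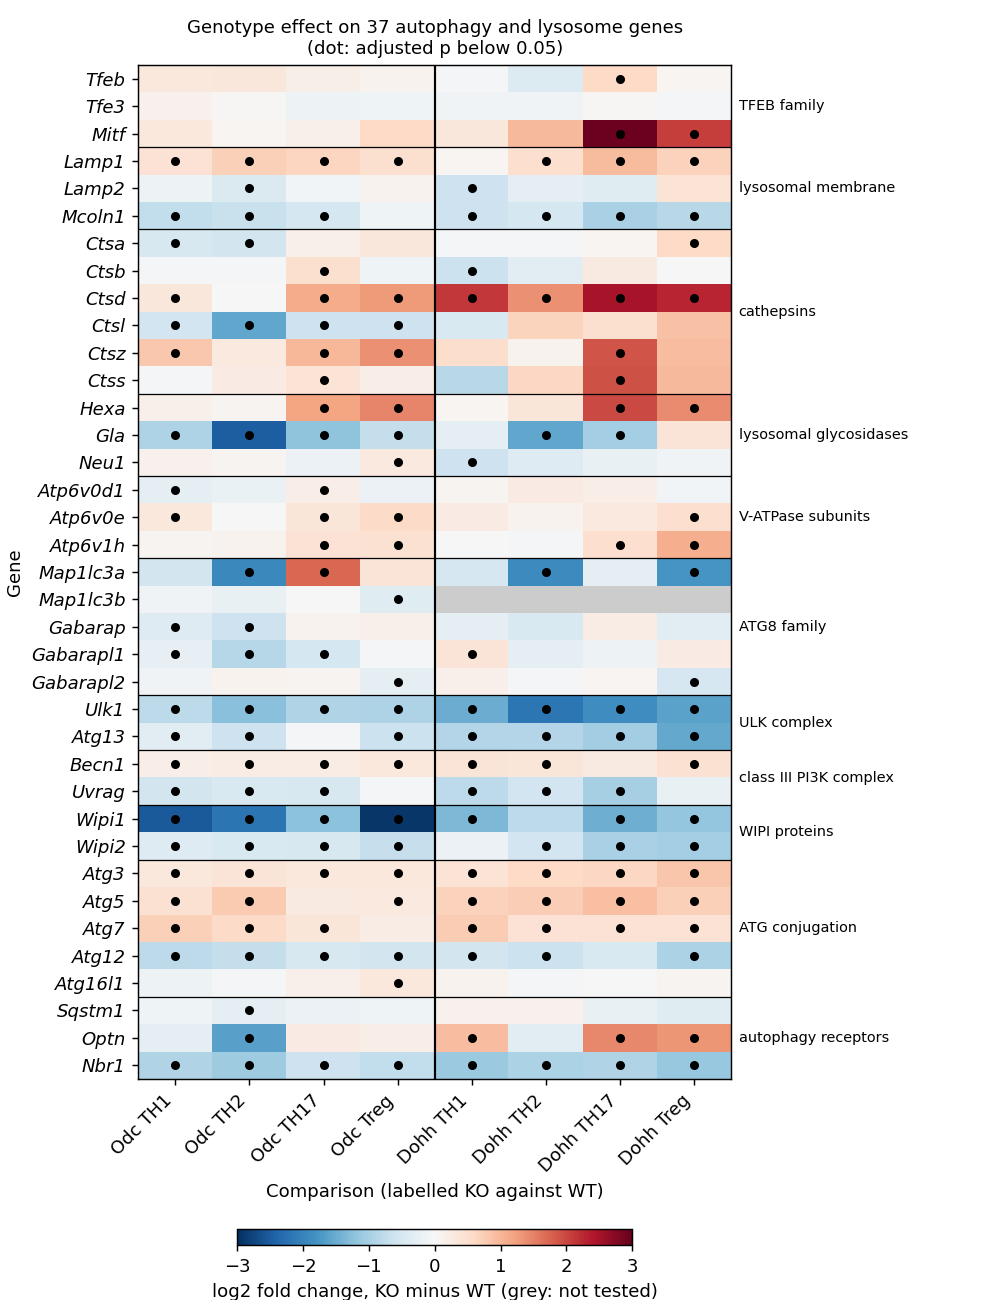
Log2 fold changes of the deleted against the WT libraries for the 37 members (rows, grouped by role) in the 8 comparisons (columns: Odc and Dohh, each in TH1, TH2, TH17 and Treg cells), with red for higher and blue for lower in deleted cells, grey where not tested, and a dot at an adjusted p below 0.05. Atg3 is higher in all 8 columns and Ulk1 and Nbr1 lower in all 8, while Gla, Map1lc3a and Optn change sign between columns.

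Of the TFEB family, Mitf rose in Dohh-/- TH17 and Treg cells, Tfeb in Dohh-/- TH17 cells, and Tfe3 passed the test in no comparison. Tfeb (chr17:47737030-47792419, plus strand of GRCm38) is the best known master regulator of lysosomal genes, Tfe3 (chrX:7762560-7775202, plus strand) is its ubiquitous relative, and Mitf (chr6:97807052-98021349, plus strand) is the third relative. Tfeb in the Odc table measured 14.9, 12.4, 12.9 and 12.9 CPM in WT and 25.97, 14.9, 13.9 and 10.9 CPM in Odc-/- TH1 libraries, and 11.9, 14.01, 12.8 and 16.2 CPM in WT and 17.2, 18.5 and 16.7 CPM in Odc-/- TH2 libraries. For TH17 cells, Tfeb gave 10.2, 10.9, 9.04 and 11.6 CPM in WT and 8.24, 10.8, 15.6 and 12.5 CPM in Odc-/- libraries, and for Treg cells 16.7, 17.1, 14.9 and 20.5 CPM in WT and 18.8, 18.2, 17.5 and 20.3 CPM in Odc-/- libraries. The Odc-/- libraries lay above all WT libraries in TH2 cells and overlapped them in the other subsets. Tfeb in the Dohh table was at 16.6, 18.7 and 14.9 CPM in WT and 11.96, 21.5 and 15.3 CPM in Dohh-/- TH1 libraries, and at 22.7, 22.6 and 17.04 CPM in WT and 16.8, 17.4 and 12.9 CPM in Dohh-/- TH2 libraries. Tfeb in TH17 cells was at 23.6, 19.6 and 18.1 CPM in WT and 32.7, 26.8 and 33.4 CPM in Dohh-/- libraries, and in Treg cells at 22.05, 24.8 and 26.2 CPM in WT and 26.6, 29.8 and 19.3 CPM in Dohh-/- libraries. Only in TH17 cells did all 3 Dohh-/- libraries exceed the WT ones. The Odc log2 fold changes of Tfeb were 0.31, 0.35, 0.17 and 0.11 in TH1, TH2, TH17 and Treg cells (SE 0.18 to 0.20), with adjusted p of 0.136 to 0.605. In the Dohh table they were -0.053, -0.40, 0.60 and 0.052 (SE 0.21), and the TH17 value had an adjusted p of 0.0203. With 1 library left out at a time, a call is lost where its adjusted p reaches 0.05, and the log2 fold change then obtained is given in parentheses. Tfeb lost its call in Dohh-/- TH17 cells without WT replicates 2 or 3 or Dohh-/- replicates 1 or 3 (0.51 to 0.56).

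Tfe3 in the Odc table measured 38.7, 34.7, 38.3 and 35.1 CPM in WT and 33.98, 45.4, 40.1 and 42.3 CPM in Odc-/- TH1 libraries, and 37.7, 36.3, 34.7 and 32.2 CPM in WT and 37.4, 34.8 and 36.6 CPM in Odc-/- TH2 libraries. For TH17 cells, Tfe3 gave 59.3, 60.1, 59.2 and 65.99 CPM in WT and 56.7, 54.6, 54.4 and 53.1 CPM in Odc-/- libraries, and for Treg cells 47.3, 42.3, 44.1 and 50.1 CPM in WT and 37.4, 44.3, 43.1 and 44.3 CPM in Odc-/- libraries. The groups overlapped except in TH17 cells, where each Odc-/- library was below each WT library. Tfe3 in the Dohh table was at 35.03, 37.3 and 29.2 CPM in WT and 39.5, 21.8 and 32.98 CPM in Dohh-/- TH1 libraries, and at 39.4, 32.99 and 34.1 CPM in WT and 29.4, 33.01 and 36.5 CPM in Dohh-/- TH2 libraries. Tfe3 in TH17 cells was at 51.7, 55.5 and 45.5 CPM in WT and 46.9, 53.8 and 56.4 CPM in Dohh-/- libraries, and in Treg cells at 51.999, 48.3 and 48.6 CPM in WT and 45.2, 47.3 and 51.03 CPM in Dohh-/- libraries. Here the groups overlapped in every subset. Its log2 fold changes were 0.14, 0.04, -0.16 and -0.12 in the Odc table and -0.10, -0.11, 0.039 and -0.053 in the Dohh table, with adjusted p of 0.111 to 0.858.

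Mitf in the Odc table measured 1.44, 2.56, 0.871 and 2.22 CPM in WT and 1.36, 2.38, 2.67 and 2.38 CPM in Odc-/- TH1 libraries, and 2.69, 1.07, 1.60 and 1.75 CPM in WT and 1.33, 1.78 and 2.45 CPM in Odc-/- TH2 libraries. For TH17 cells, Mitf gave 2.20, 1.52, 1.92 and 1.86 CPM in WT and 1.46, 2.63, 2.83 and 1.56 CPM in Odc-/- libraries, and for Treg cells 1.27, 1.34, 1.61 and 1.75 CPM in WT and 1.19, 2.77, 2.72 and 2.35 CPM in Odc-/- libraries. Mitf was near the floor and the groups overlapped in all subsets. Mitf in the Dohh table was at 1.08, 0.498 and 0.785 CPM in WT and 0.511, 1.26 and 1.32 CPM in Dohh-/- TH1 libraries, and at 1.32, 0.740 and 1.12 CPM in WT and 0.944, 3.77 and 1.59 CPM in Dohh-/- TH2 libraries. Mitf in TH17 cells was at 1.05, 1.17 and 0.693 CPM in WT and 2.54, 11.9 and 8.31 CPM in Dohh-/- libraries, and in Treg cells at 0.753, 0.851 and 0.682 CPM in WT and 0.773, 3.84 and 5.05 CPM in Dohh-/- libraries. The Dohh-/- libraries exceeded all WT libraries in TH17 cells, with replicates 2 and 3 far above the replicate numbered 1, and in Treg cells replicate 1 was within the WT range. The log2 fold change of Mitf was 2.94 ± 0.63 in TH17 (edgeR adjusted p = 0.000594) and 2.08 ± 0.64 in Treg cells (adjusted p = 0.00936). Replicates 2 and 3 are also those with the most macrophage marker RNA, and the part of macrophages in the Mitf level was not tested. With both left out Mitf stood at 1.37 in TH17 (adjusted p = 0.0314) and 0.0074 in Treg cells (adjusted p = 0.999). Mitf lost its call in Dohh-/- Treg cells without Dohh-/- replicate 3 (1.55).

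Factors of the TFEB family bind a palindrome, TCACGTGA, known as the core of the CLEAR element, which itself contains the shorter E-box CACGTG. RefSeq promoter windows (250 bases before to 50 after the gene start, GRCm38.p6) were matched for 31 of the 37 members. Those of Atp6v1h, Ctsb, Becn1, Atg12, Atg16l1 and Map1lc3a were not matched. TCACGTGA stood in a window of 7 of the 31 members (22.6%), against 304 of 27025 genes with a window (1.12%). CACGTG, counted whether or not within the longer word, stood in a window of 11 of 31 members (35.5%), against 2187 of 27025 genes (8.09%). The list holds genes of the kind that the family switches on, so a larger share than in all genes is no independent result. The 27025 genes were not limited to those tested here. Some members had more than 1 window. Both words read the same on either strand. Distances below are counted from the RefSeq start of each window, which is not the first base of the GENCODE gene given elsewhere. In the direction of the gene, the RefSeq start lies inside the GENCODE gene by 62 bases for Mcoln1, 900 for Ctsa, 211 for Ctsd, 120 for Gla, 13165 for Atp6v0e and 44 for Atg3, and 17 bases before it for Atp6v0d1. The 7 members are shown because they hold the element by which the family recognises its targets, with up to 40 bases on each side and the word in capitals:
Mcoln1 (chr8:3500433-3500520, plus strand, 46 bases before the RefSeq start): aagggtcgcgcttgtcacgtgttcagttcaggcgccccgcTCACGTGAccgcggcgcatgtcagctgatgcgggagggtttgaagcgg
Ctsa (chr2:164833720-164833822, plus strand, 1 word 13 bases before and 1 word 4 bases after the RefSeq start): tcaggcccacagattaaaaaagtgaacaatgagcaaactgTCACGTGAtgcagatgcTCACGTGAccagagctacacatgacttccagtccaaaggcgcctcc
Ctsd (chr7:142387879-142387966, minus strand, 99 bases before the RefSeq start): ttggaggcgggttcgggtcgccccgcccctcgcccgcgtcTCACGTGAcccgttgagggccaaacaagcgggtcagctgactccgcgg
Gla (chrX:134601153-134601255, minus strand, words 228 and 195 bases before the RefSeq start): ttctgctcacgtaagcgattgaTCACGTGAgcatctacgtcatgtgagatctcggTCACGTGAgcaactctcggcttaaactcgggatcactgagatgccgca
Atp6v0d1 (chr8:105566021-105566108, minus strand, 4 bases before the RefSeq start): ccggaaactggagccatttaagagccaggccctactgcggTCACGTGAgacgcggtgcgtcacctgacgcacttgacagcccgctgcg
Atp6v0e (chr17:26676358-26676445, plus strand, 2 bases after the RefSeq start): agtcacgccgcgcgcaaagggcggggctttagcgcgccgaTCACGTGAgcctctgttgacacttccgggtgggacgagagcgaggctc
Atg3 (chr16:45158717-45158804, plus strand, 72 bases before the RefSeq start): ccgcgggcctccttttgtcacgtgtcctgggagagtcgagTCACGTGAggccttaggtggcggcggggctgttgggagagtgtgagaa
The genes with the word did not share a direction. Atg3 and Ctsd rose in 8 and 7 of 8 comparisons, Mcoln1 and Gla fell in 7 and 6, Atp6v0e rose in 4, and Ctsa and Atp6v0d1 each moved in both directions. The shorter word alone stood in windows of Lamp1, Atg5 and Atg7, which rose in 7, and of Ctsl, which fell in 4. Ulk1, Wipi1 and Nbr1 were among the members whose windows held no CACGTG, as were Ctsz and Hexa, which rose in 4 and fell in none. Whether the word goes with direction was not tested. A match is a description of the letters and not a measured binding site.

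Of the lysosomal membrane proteins, Lamp1 and Mcoln1 moved in opposite directions. Lamp1 (chr8:13159161-13175338, plus strand), an abundant glycoprotein of the limiting membrane, rose in all 4 Odc-/- subsets and in 3 Dohh-/- subsets. Lamp1 in the Odc table measured 114, 114, 121 and 125 CPM in WT and 148, 171, 150.0 and 172 CPM in Odc-/- TH1 libraries, and 126, 116, 113 and 113 CPM in WT and 196, 186 and 191 CPM in Odc-/- TH2 libraries. For TH17 cells, Lamp1 gave 124, 127, 125 and 158 CPM in WT and 187, 226, 198 and 226 CPM in Odc-/- libraries, and for Treg cells 159, 155, 169 and 165 CPM in WT and 241, 216, 208 and 246 CPM in Odc-/- libraries. Every Odc-/- library was above every WT library of its subset. Lamp1 in the Dohh table was at 115, 134 and 108 CPM in WT and 136, 126 and 107 CPM in Dohh-/- TH1 libraries, and at 138, 131 and 121 CPM in WT and 144, 231 and 181 CPM in Dohh-/- TH2 libraries. Lamp1 in TH17 cells was at 147, 153 and 146 CPM in WT and 193, 355 and 313 CPM in Dohh-/- libraries, and in Treg cells at 161, 159 and 168 CPM in WT and 216, 305 and 269 CPM in Dohh-/- libraries. The groups overlapped in TH1 cells only, and the rise was smallest in the replicate numbered 1 of TH2, TH17 and Treg cells. Lamp1 log2 fold changes were 0.44, 0.71, 0.65 and 0.49 in the Odc table (SE 0.08 to 0.09, adjusted p 7.26e-07 to 0.000119) and 0.05, 0.51, 0.95 and 0.70 in the Dohh table (SE 0.19). The TH2 rise (adjusted p = 0.0364) was 0.14 with Dohh-/- replicates 2 and 3 left out (adjusted p = 0.447), and the TH17 and Treg rises were then 0.39 and 0.38, both past the test. Mcoln1, a calcium channel of the lysosome, fell in 7 comparisons, with log2 fold changes of -0.73, -0.68, -0.52 and -0.12 in the Odc and -0.61, -0.53, -0.97 and -0.82 in the Dohh table, Odc-/- Treg cells being the exception (adjusted p = 0.562). Lamp2, the second major membrane glycoprotein, fell in Odc-/- TH2 (-0.42 ± 0.14) and Dohh-/- TH1 cells (-0.63 ± 0.21) and did not pass the test elsewhere, though with Dohh-/- replicates 2 and 3 left out it passed in TH17 cells at -0.82 (adjusted p = 0.000743) where all libraries gave -0.36. Lamp1 lost its call in Dohh-/- TH2 cells without WT replicates 1, 2 or 3 or Dohh-/- replicates 2 or 3 (0.32 to 0.55). Lamp2 lost its call in Dohh-/- TH1 cells without WT replicate 1 or Dohh-/- replicate 2 (-0.55 to -0.57). Mcoln1 lost its call in Odc-/- TH17 cells without WT replicate 3 (-0.43).

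Among all members, Ctsd had the largest mean rise over the Dohh subsets. Ctsd (chr7:142375911-142388038, minus strand) encodes the aspartic protease cathepsin D. Ctsd in the Odc table measured 397, 374, 401 and 366 CPM in WT and 479.6, 461, 557 and 462 CPM in Odc-/- TH1 libraries, and 236, 211, 248 and 199 CPM in WT and 215, 239 and 219.6 CPM in Odc-/- TH2 libraries. For TH17 cells, Ctsd gave 219, 199.7, 232 and 193 CPM in WT and 389.9, 438, 561 and 435 CPM in Odc-/- libraries, and for Treg cells 182, 157, 197 and 133 CPM in WT and 437, 329.7, 474 and 376 CPM in Odc-/- libraries. The groups overlapped in TH2 cells and were apart in the other subsets. Ctsd in the Dohh table was at 425, 483 and 419 CPM in WT and 1261, 2428 and 2105 CPM in Dohh-/- TH1 libraries, and at 375, 340.1 and 284 CPM in WT and 816, 862 and 919 CPM in Dohh-/- TH2 libraries. Ctsd in TH17 cells was at 279.9, 279.8 and 278 CPM in WT and 867, 1719.8 and 2094 CPM in Dohh-/- libraries, and in Treg cells at 249.8, 267 and 234 CPM in WT and 995, 1343 and 1304 CPM in Dohh-/- libraries. All Dohh-/- libraries were above all WT libraries, and replicate 1 was the lowest of the deleted libraries in each subset. Its log2 fold changes were 0.35, 0.005, 1.11 and 1.27 in the Odc table (SE 0.12 to 0.13, with an adjusted p of 0.979 in TH2 cells) and 2.13, 1.38, 2.48 and 2.28 in the Dohh table (SE 0.25 to 0.26, edgeR adjusted p 2.06e-07 to 0.000152). With Dohh-/- replicates 2 and 3 left out they were 1.54, 1.29, 1.64 and 1.96, all past the test. Ctsd lost its call in Odc-/- TH1 cells without Odc-/- replicate 3 (0.28).

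Ctsz (chr2:174427493-174439039, minus strand), a cysteine carboxypeptidase, rose in Odc-/- TH1, TH17 and Treg cells and in Dohh-/- TH17 cells. Ctsz in the Odc table measured 123, 128, 127 and 182 CPM in WT and 245, 246, 261 and 233 CPM in Odc-/- TH1 libraries, and 162, 209.7, 209 and 232 CPM in WT and 254, 267 and 223 CPM in Odc-/- TH2 libraries. For TH17 cells, Ctsz gave 106, 117, 124 and 131 CPM in WT and 209.7, 240.5, 262 and 236 CPM in Odc-/- libraries, and for Treg cells 169, 146, 174 and 183 CPM in WT and 555, 339.9, 436 and 414 CPM in Odc-/- libraries. Only the TH2 groups overlapped. Ctsz in the Dohh table was at 139.5, 179.7 and 166 CPM in WT and 187, 443 and 72.5 CPM in Dohh-/- TH1 libraries, and at 329, 371 and 271 CPM in WT and 248, 453 and 351 CPM in Dohh-/- TH2 libraries. Ctsz in TH17 cells was at 142, 129 and 131 CPM in WT and 229, 462 and 809 CPM in Dohh-/- libraries, and in Treg cells at 176, 234 and 201 CPM in WT and 296, 363 and 505 CPM in Dohh-/- libraries. In TH17 and Treg cells each Dohh-/- library exceeded each WT library, and in TH1 cells the deleted libraries spread to both sides of WT. The log2 fold changes of Ctsz were 0.82, 0.29, 0.99 and 1.38 in the Odc table (SE 0.13 to 0.14) and 0.53, 0.12, 1.90 and 0.93 in the Dohh table (SE 0.44 to 0.46), with an adjusted p of 0.00193 in Dohh-/- TH17 and 0.085 in Dohh-/- Treg cells. With Dohh-/- replicates 2 and 3 left out, Ctsz stood at 0.78 in TH17 (adjusted p = 0.00071) and 0.51 in Treg cells (adjusted p = 0.0172).

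The other proteases passed the test in at most 1 Dohh-/- subset each. Ctsl, the endopeptidase cathepsin L, fell in all 4 Odc-/- subsets (log2 fold changes of -0.57, -1.55, -0.62 and -0.62) and passed the test in no Dohh-/- subset (-0.45, 0.68, 0.48 and 0.87). Ctss, a cathepsin of antigen-presenting cells, rose in Odc-/- TH17 (0.42 ± 0.14) and Dohh-/- TH17 cells (1.90 ± 0.52), and the Dohh-/- TH17 rise was 1.21 without replicate 2 and 0.48 without replicates 2 and 3 (adjusted p = 0.00904). With Dohh-/- replicates 2 and 3 left out, Ctss stood at -1.72 in TH1 cells (adjusted p = 6.20e-08) and at -0.82 in Treg cells (adjusted p = 0.000187), where all libraries gave -0.84 and 0.98, and Ctsl in TH17 cells turned from 0.48 to -0.86 (adjusted p = 0.00172). In TH1 cells Ctsl and Ctsa then passed as well, at -0.64 and -0.38, and in TH2 cells Ctsb at -0.48. The Odc-/- TH17 rise of Ctss had an adjusted p of 0.014, and of 0.0522 without Odc-/- replicate 3. Ctsb, a cysteine protease, rose in Odc-/- TH17 (0.47 ± 0.14) and fell in Dohh-/- TH1 cells (-0.64 ± 0.21), and its Dohh-/- Treg value of 0.012 turned to -0.40 with replicates 2 and 3 left out. Ctsa, a carboxypeptidase that also shields Neu1, fell in Odc-/- TH1 (-0.47 ± 0.15) and TH2 cells (-0.56 ± 0.17) and rose in Dohh-/- Treg cells (0.59 ± 0.16). Ctsl lost its call in Odc-/- TH1 cells without WT replicate 1 or Odc-/- replicates 2, 3 or 4 (-0.46 to -0.58). Ctsb lost its call in Dohh-/- TH1 cells without WT replicate 2 or Dohh-/- replicate 1 (-0.45 to -0.57). Ctsa lost its call in Odc-/- TH1 cells without Odc-/- replicates 2 or 4 (-0.36 to -0.37) and in Dohh-/- Treg cells without Dohh-/- replicate 2 (0.43).

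Of the glycosidases, Gla fell in 6 comparisons. Gla (chrX:134588149-134601125, minus strand) encodes alpha-galactosidase A, which trims galactose from glycolipids. Gla in the Odc table measured 57.4, 58.7, 58.6 and 53.4 CPM in WT and 56.9, 17.6, 26.04 and 20.9 CPM in Odc-/- TH1 libraries, and 192, 224, 188 and 188 CPM in WT and 24.8, 48.4 and 33.1 CPM in Odc-/- TH2 libraries. For TH17 cells, Gla gave 47.7, 62.3, 48.7 and 31.1 CPM in WT and 26.98, 17.4, 18.97 and 18.5 CPM in Odc-/- libraries, and for Treg cells 38.1, 27.6, 43.1 and 20.5 CPM in WT and 23.1, 18.8, 16.3 and 20.5 CPM in Odc-/- libraries. WT TH2 cells had the highest level, all Odc-/- libraries of TH2 and TH17 cells lay below WT, and the Odc-/- TH1 library numbered 1 was within the WT range while the other Odc-/- TH1 libraries were well below it. Gla in the Dohh table was at 31.7, 24.9 and 24.8 CPM in WT and 24.1, 28.1 and 15.9 CPM in Dohh-/- TH1 libraries, and at 123, 113 and 104 CPM in WT and 41.02, 39.6 and 35.2 CPM in Dohh-/- TH2 libraries. Gla in TH17 cells was at 51.2, 65.7 and 59.7 CPM in WT and 26.5, 31.8 and 28.3 CPM in Dohh-/- libraries, and in Treg cells at 22.8, 18.8 and 16.7 CPM in WT and 26.6, 24.7 and 24.7 CPM in Dohh-/- libraries. Here too the TH2 and TH17 groups were apart, and in Treg cells the Dohh-/- libraries were above WT. The log2 fold changes of Gla were -0.92, -2.48, -1.21 and -0.72 in the Odc table (SE 0.27 to 0.31, adjusted p 5.56e-07 to 0.0286), and -0.26, -1.56, -1.03 and 0.38 in the Dohh table (SE 0.17 to 0.18), where the TH2 and TH17 falls passed the test (adjusted p 6.95e-07 and 6.80e-05). Without the Odc-/- TH1 library numbered 1 the TH1 value was -1.43, and without Odc-/- replicate 3 the Treg fall did not pass (adjusted p = 0.0824). Hexa, a subunit of beta-hexosaminidase, rose in TH17 and Treg cells of both tables, by 1.18 and 1.47 in Odc-/- and 1.99 and 1.41 in Dohh-/- cells, and with Dohh-/- replicates 2 and 3 left out its TH17 rise was 0.93 and its TH1 value turned from 0.055 to -0.73. Neu1, a sialidase, rose in Odc-/- Treg (0.30 ± 0.11, not past the test without replicate 3) and fell in Dohh-/- TH1 cells (-0.62 ± 0.21, not past the test without replicates 2 and 3), and without those replicates it passed in TH2, TH17 and Treg cells, at -0.42, -0.86 and -0.34. Gla lost its call in Odc-/- Treg cells without WT replicates 1 or 3 or Odc-/- replicates 2 or 3 (-0.55 to -0.69). Neu1 lost its call in Odc-/- Treg cells without WT replicates 2 or 4 or Odc-/- replicates 1 or 3 (0.22 to 0.28) and in Dohh-/- TH1 cells without Dohh-/- replicate 3 (-0.42).

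The vacuolar ATPase acidifies the lysosome. Of its 3 members, 1, 0, 3 and 2 rose in Odc-/- TH1, TH2, TH17 and Treg cells. Over all genes 29.1%, 29.9%, 25.6% and 32.9% rose there. In the same Dohh-/- subsets 0, 0, 1 and 2 rose, against 25.9%, 23.8%, 27% and 28.4% of all genes. Of the 14 other subunits, 7, 6, 9 and 9 rose in the Odc-/- subsets, so rises were not confined to TH17 and Treg cells. Whether the group differs between subsets was not tested. Atp6v0e (chr17:26663231-26699647, plus strand), a small membrane subunit, rose in 3 Odc-/- subsets and in Dohh-/- Treg cells. Atp6v0e in the Odc table measured 76.3, 77.2, 87.7 and 79.6 CPM in WT and 96.04, 98.002, 104 and 99.4 CPM in Odc-/- TH1 libraries, and 87.5, 85.1, 98.8 and 82.4 CPM in WT and 84.2, 93.5 and 86.6 CPM in Odc-/- TH2 libraries. For TH17 cells, Atp6v0e gave 81.3, 79.96, 85.2 and 85.4 CPM in WT and 101, 113, 103 and 111 CPM in Odc-/- libraries, and for Treg cells 73.8, 71.7, 78.001 and 66.3 CPM in WT and 126, 95.7, 109.9 and 97.7 CPM in Odc-/- libraries. The groups overlapped in TH2 cells and were apart in the others. Atp6v0e in the Dohh table was at 88.2, 97.5 and 96.9 CPM in WT and 111, 129 and 95.97 CPM in Dohh-/- TH1 libraries, and at 108, 115 and 121 CPM in WT and 112, 119.9 and 139 CPM in Dohh-/- TH2 libraries. Atp6v0e in TH17 cells was at 102, 111 and 104 CPM in WT and 107, 139 and 141 CPM in Dohh-/- libraries, and in Treg cells at 102, 101 and 86.3 CPM in WT and 133, 129 and 150.5 CPM in Dohh-/- libraries. Only the Treg groups were apart. Its log2 fold changes were 0.31, -0.006, 0.37 and 0.57 in the Odc table (SE 0.08 to 0.09) and 0.25, 0.12, 0.29 and 0.51 in the Dohh table (SE 0.14), with an adjusted p of 0.00387 in Dohh-/- Treg cells. Atp6v1h, a regulatory subunit of the cytosolic part, rose in TH17 and Treg cells of both tables (0.42 and 0.46 with Odc-/-, 0.52 and 1.08 with Dohh-/-). With Dohh-/- replicates 2 and 3 left out the Atp6v1h rise in TH17 cells did not pass (adjusted p = 0.315) and its TH1 value turned from 0.011 to -0.54. Atp6v0d1, a subunit of the membrane part, fell in Odc-/- TH1 (-0.27 ± 0.09) and rose in Odc-/- TH17 cells (0.21 ± 0.09), the latter not past the test without replicate 3. Atp6v0e lost its call in Dohh-/- Treg cells without WT replicate 3 (0.38). Atp6v0d1 lost its call in Odc-/- TH17 cells without WT replicates 1, 2, 3 or 4 or Odc-/- replicates 2, 3 or 4 (0.16 to 0.23). Atp6v1h lost its call in Dohh-/- TH17 cells without WT replicates 1 or 3 or Dohh-/- replicates 2 or 3 (0.44 to 0.51).

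The lysosomal genes that rose most in Dohh-/- cells did so in libraries that differed in macrophage RNA. In TH17 cells the WT sums of macrophage markers were 21.96, 19.1 and 20.6 CPM and the Dohh-/- sums 94.6, 4689.8 and 1599.5 CPM. In TH1 cells the Dohh-/- macrophage sums were 2.76, 112 and 3.97 CPM, and Ctsd was above WT in each of these libraries. Basophil and mast cell markers summed to 72.2 to 434 CPM there, against 6.46 to 8.19 CPM in WT. CD8 T and NK cell markers summed to 186 to 543 against 39.85 to 53.8 CPM. B cell and antigen-presenting cell markers lay on both sides of WT (71.3 to 288 against 204 to 221 CPM). The part of these cells in the Ctsd level was not tested. Over the Odc-/- libraries the macrophage sums were 35.9, 109.8, 293 and 90.04 CPM in TH17 and 106, 127, 351 and 96.1 CPM in Treg cells.

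**Figure D2:**
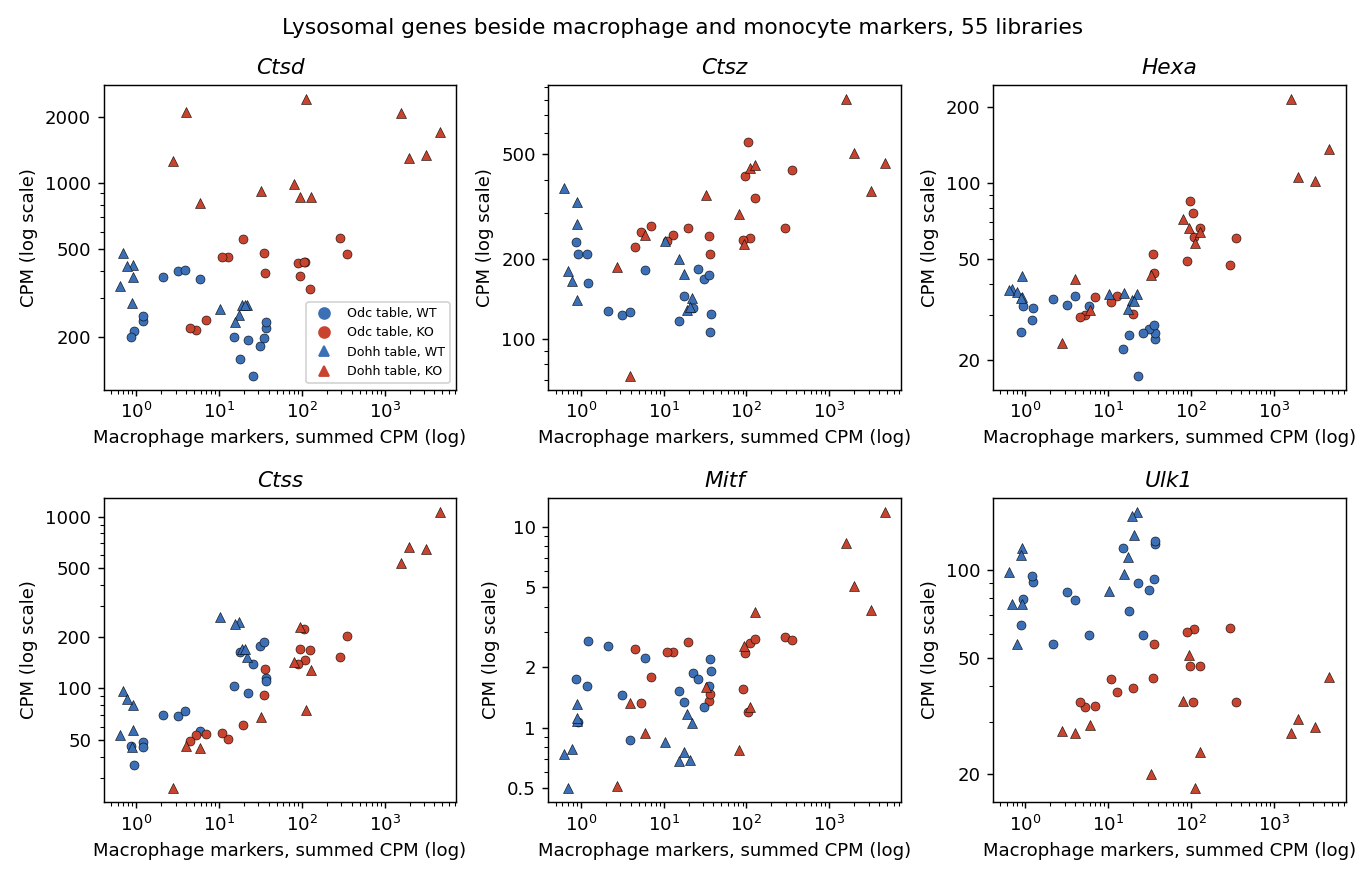
Level of Ctsd, Ctsz, Hexa, Ctss, Mitf and Ulk1 (CPM, log axis) against the summed level of 10 macrophage and monocyte markers (CPM, log axis), with 1 point per library, circles for the Odc and triangles for the Dohh table, blue for WT and red for deleted (KO) cells. The Dohh-/- TH17 and Treg libraries numbered 2 and 3 lie farthest to the right, where Mitf is highest. Ulk1 is below WT of the same subset in all Dohh-/- libraries.

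Both members of the ULK complex fell in 7 of the 8 comparisons. Ulk1 (chr5:110784488-110810097, minus strand), the kinase that starts autophagosome formation when nutrients are short, fell in all 8. Ulk1 in the Odc table measured 83.9, 55.6, 78.9 and 59.7 CPM in WT and 42.6, 37.96, 39.3 and 42.1 CPM in Odc-/- TH1 libraries, and 90.96, 79.5, 95.3 and 64.4 CPM in WT and 33.8, 34.1 and 35.3 CPM in Odc-/- TH2 libraries. For TH17 cells, Ulk1 gave 122, 118, 126 and 90.04 CPM in WT and 55.8, 62.7, 62.9 and 61.3 CPM in Odc-/- libraries, and for Treg cells 84.8, 72.2, 92.98 and 59.8 CPM in WT and 35.1, 46.8, 35.3 and 46.9 CPM in Odc-/- libraries. Every Odc-/- library was below every WT library of its subset. Ulk1 in the Dohh table was at 76.2, 76.01 and 55.4 CPM in WT and 28.004, 17.8 and 27.6 CPM in Dohh-/- TH1 libraries, and at 119, 97.7 and 113 CPM in WT and 29.3, 23.7 and 19.9 CPM in Dohh-/- TH2 libraries. Ulk1 in TH17 cells was at 158, 153 and 132 CPM in WT and 50.8, 42.9 and 27.6 CPM in Dohh-/- libraries, and in Treg cells at 111, 84.4 and 96.8 CPM in WT and 35.6, 28.98 and 30.7 CPM in Dohh-/- libraries. The same held for the Dohh-/- libraries, and the falls were deeper. Ulk1 log2 fold changes were -0.78, -1.26, -0.91 and -0.92 in the Odc table (SE 0.14 to 0.16, edgeR adjusted p 7.50e-07 to 8.37e-05) and -1.49, -2.17, -1.86 and -1.62 in the Dohh table (SE 0.21 to 0.22, adjusted p 1.40e-07 to 1.10e-05). The Dohh-/- library numbered 1 had the least macrophage marker RNA of its group in each subset, though more than any WT library of that subset. Ulk1 was below WT in it, and with replicates 2 and 3 left out the Ulk1 values were -1.28, -1.91, -1.53 and -1.48. In every Dohh-/- library basophil and mast cell markers summed to at least 72.2 CPM, against at most 25.8 CPM in WT. T cell markers summed to at most 3632 CPM, against at least 3878 CPM in WT. The part of other cells in the Ulk1 level was not tested. Atg13, the adaptor that holds the complex together, had log2 fold changes of -0.31, -0.63, -0.066 and -0.64 in the Odc table and -0.89, -0.88, -1.04 and -1.54 in the Dohh table, all past the test except in Odc-/- TH17 cells (adjusted p = 0.626).

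In the class III PI3 kinase complexes the scaffold rose and the endosomal partner fell. Uvrag (chr7:98885021-99141141, minus strand), the partner in endosome and autophagosome maturation, fell in TH1, TH2 and TH17 cells of both tables and not in Treg cells. Uvrag in the Odc table measured 66.9, 62.7, 80.1 and 51.4 CPM in WT and 50.3, 38.2, 44.3 and 45.2 CPM in Odc-/- TH1 libraries, and 90.8, 76.6, 86.6 and 73.2 CPM in WT and 63.3, 54.3 and 60.6 CPM in Odc-/- TH2 libraries. For TH17 cells, Uvrag gave 58.3, 57.01, 61.2 and 51.7 CPM in WT and 47.04, 37.2, 40.3 and 37.99 CPM in Odc-/- libraries, and for Treg cells 36.6, 37.7, 37.8 and 38.7 CPM in WT and 32.2, 42.2, 35.2 and 35.7 CPM in Odc-/- libraries. The groups were apart in TH1, TH2 and TH17 cells and overlapped in Treg cells. Uvrag in the Dohh table was at 77.2, 78.4 and 66.1 CPM in WT and 51.4, 35.3 and 40.9 CPM in Dohh-/- TH1 libraries, and at 114, 83.2 and 93.6 CPM in WT and 74.1, 62.8 and 58.6 CPM in Dohh-/- TH2 libraries. Uvrag in TH17 cells was at 73.9, 71.02 and 69.2 CPM in WT and 39.2, 38.3 and 30.4 CPM in Dohh-/- libraries, and in Treg cells at 45.98, 49.2 and 40.6 CPM in WT and 39.1, 40.8 and 36.9 CPM in Dohh-/- libraries. The same order was seen, with overlap only in Treg cells. Log2 fold changes of Uvrag were -0.55, -0.46, -0.49 and -0.053 in the Odc table (SE 0.11 to 0.12) and -0.79, -0.57, -0.99 and -0.22 in the Dohh table (SE 0.15 to 0.16), and the Treg values had adjusted p of 0.704 and 0.245. That difference between subsets did not pass the interaction test. The Dohh-/- TH2 fall had an adjusted p of 0.0703 with replicates 2 and 3 left out. Becn1, the scaffold of both complexes, rose by 0.20, 0.22, 0.23 and 0.32 in the Odc table and, outside TH17 cells (0.27, adjusted p = 0.061), by 0.39, 0.36 and 0.45 in TH1, TH2 and Treg cells of the Dohh table. Its exons overlap those of a gene on the other strand over 43.9% of their length, which may mix reads because the strand setting of the counting is not given, and its Odc-/- TH1 and TH2 rises did not pass without replicate 3. Gabarapl1 (28.3%), Uvrag (17.6%), Ctsa (17.4%), Sqstm1 (17.3%), Ctsb (12.8%) and Hexa (12.8%) share less of their exons in this way. Becn1 lost its call in Odc-/- TH1 cells without WT replicates 1, 2 or 3 or Odc-/- replicate 3 (0.17 to 0.18), in Odc-/- TH2 cells without WT replicates 1, 2 or 3 or Odc-/- replicates 3 or 4 (0.17 to 0.19) and in Dohh-/- TH2 cells without WT replicate 2 or Dohh-/- replicates 1 or 3 (0.29 to 0.32).

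Both WIPI proteins, which read the lipid made by that kinase, fell in all 4 Odc-/- subsets. Wipi1 (chr11:109573331-109611967, minus strand) had the largest mean fall of the members over the Odc subsets. Wipi1 in the Odc table measured 11.99, 11.8, 15.4 and 11.7 CPM in WT and 5.89, 0.926, 1.13 and 1.12 CPM in Odc-/- TH1 libraries, and 16.2, 18.5, 17.1 and 12.8 CPM in WT and 1.33, 6.37 and 2.84 CPM in Odc-/- TH2 libraries. For TH17 cells, Wipi1 gave 10.7, 12.9, 13.9 and 10.6 CPM in WT and 5.05, 4.60, 5.32 and 5.60 CPM in Odc-/- libraries, and for Treg cells 18.8, 20.7, 20.6 and 12.8 CPM in WT and 2.91, 1.93, 2.85 and 1.95 CPM in Odc-/- libraries. All Odc-/- libraries were below WT, and the TH1 library numbered 1 stood well above the other Odc-/- TH1 libraries. Wipi1 in the Dohh table was at 8.53, 7.47 and 6.95 CPM in WT and 3.47, 2.05 and 3.31 CPM in Dohh-/- TH1 libraries, and at 13.4, 12.2 and 13.6 CPM in WT and 10.1, 8.97 and 3.82 CPM in Dohh-/- TH2 libraries. Wipi1 in TH17 cells was at 18.2, 16.9 and 20.1 CPM in WT and 5.07, 11.1 and 3.48 CPM in Dohh-/- libraries, and in Treg cells at 17.9, 15.9 and 17.5 CPM in WT and 7.62, 9.09 and 6.39 CPM in Dohh-/- libraries. All Dohh-/- libraries were below WT as well. Wipi1 log2 fold changes were -2.51, -2.19, -1.22 and -2.92 in the Odc table (SE 0.34 to 0.39, edgeR adjusted p 2.81e-07 to 0.00499) and -1.36, -0.77, -1.46 and -1.15 in the Dohh table (SE 0.33 to 0.35), where TH2 cells did not pass (adjusted p = 0.0581). Without the Odc-/- TH1 library numbered 1 the TH1 value was -3.59, without the Odc-/- TH2 library numbered 3 the TH2 value was -2.94, and without the Dohh-/- TH17 library numbered 2 the Dohh TH17 value was -2.08.

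Wipi2 (chr5:142627698-142670588, plus strand), which brings the ATG16L1 complex to the membrane, was more abundant and fell in 7 comparisons. Wipi2 in the Odc table measured 104, 91.6, 111 and 102 CPM in WT and 81.1, 74.9, 76.3 and 79.8 CPM in Odc-/- TH1 libraries, and 109.6, 126, 118 and 110.2 CPM in WT and 75.8, 88.04 and 90.2 CPM in Odc-/- TH2 libraries. For TH17 cells, Wipi2 gave 117, 119, 117 and 109.7 CPM in WT and 87.4, 78.4, 86.5 and 79.4 CPM in Odc-/- libraries, and for Treg cells 119, 122, 118 and 105 CPM in WT and 75.4, 77.6, 65.5 and 70.6 CPM in Odc-/- libraries. The Odc-/- libraries were below WT in all subsets. Wipi2 in the Dohh table was at 84.4, 76.8 and 81.8 CPM in WT and 77.6, 89.6 and 48.9 CPM in Dohh-/- TH1 libraries, and at 124, 121 and 121 CPM in WT and 91.6, 86.4 and 68.8 CPM in Dohh-/- TH2 libraries. Wipi2 in TH17 cells was at 121, 121 and 127 CPM in WT and 66.96, 68.5 and 51.98 CPM in Dohh-/- libraries, and in Treg cells at 115, 121 and 126 CPM in WT and 67.9, 60.9 and 49.7 CPM in Dohh-/- libraries. Only the TH1 groups overlapped. Log2 fold changes of Wipi2 were -0.39, -0.45, -0.48 and -0.68 in the Odc table (SE 0.08) and -0.17, -0.57, -0.98 and -1.02 in the Dohh table (SE 0.17 to 0.18, adjusted p = 0.431 in TH1 cells). Wipi2 lost its call in Dohh-/- TH2 cells without Dohh-/- replicate 3 (-0.46).

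Of the conjugation machinery, Atg3, Atg5 and Atg7 rose in most comparisons, Atg12 fell in 7 and Atg16l1 passed the test in 1. Atg3 (chr16:45158785-45188538, plus strand), the enzyme that hands ATG8 proteins to lipid, rose in all 8 comparisons. Atg3 in the Odc table measured 47.7, 51.9, 50.8 and 64.8 CPM in WT and 59.95, 69.3, 69.1 and 70.96 CPM in Odc-/- TH1 libraries, and 45.1, 45.4, 44.8 and 55.1 CPM in WT and 60.7, 58.7 and 66.5 CPM in Odc-/- TH2 libraries. For TH17 cells, Atg3 gave 41.3, 44.4, 41.8 and 48.2 CPM in WT and 53.02, 62.3, 50.1 and 54.1 CPM in Odc-/- libraries, and for Treg cells 35.5, 40.5, 34.7 and 52.4 CPM in WT and 43.3, 54.1, 55.1 and 49.9 CPM in Odc-/- libraries. The Odc-/- libraries exceeded all WT libraries in TH2 and TH17 cells, while in TH1 and Treg cells 1 WT library, that numbered 4, lay among them. Atg3 in the Dohh table was at 32.7, 30.9 and 45.2 CPM in WT and 48.6, 52.1 and 43.02 CPM in Dohh-/- TH1 libraries, and at 34.7, 35.4 and 38.6 CPM in WT and 50.4, 60.1 and 55.02 CPM in Dohh-/- TH2 libraries. Atg3 in TH17 cells was at 26.4, 24.4 and 25.8 CPM in WT and 37.7, 40.4 and 39.6 CPM in Dohh-/- libraries, and in Treg cells at 27.02, 27.4 and 28.9 CPM in WT and 49.3, 49.8 and 50.1 CPM in Dohh-/- libraries. There the groups were apart except in TH1 cells. The log2 fold changes of Atg3 were 0.32, 0.38, 0.32 and 0.31 in the Odc table (SE 0.12 to 0.13, edgeR adjusted p 0.0108 to 0.0259) and 0.40, 0.61, 0.62 and 0.84 in the Dohh table (SE 0.13 to 0.14, adjusted p 2.99e-05 to 0.0169). Over all alternatives Atg3 passed in 100 of 127 values, and in Odc-/- Treg cells, where it passed under 6 of 17 alternatives, it had an adjusted p of 0.0864 without Odc-/- replicate 3. Atg3 lost its call in Odc-/- TH1 cells without WT replicates 1 or 3 or Odc-/- replicate 4 (0.25 to 0.30), in Odc-/- TH2 cells without Odc-/- replicate 4 (0.31), in Odc-/- TH17 cells without WT replicates 1 or 3 or Odc-/- replicate 2 (0.26 to 0.30), in Odc-/- Treg cells without WT replicates 1 or 3 or Odc-/- replicates 2 or 3 (0.24 to 0.28) and in Dohh-/- TH1 cells without WT replicates 1 or 2 or Dohh-/- replicate 2 (0.31 to 0.34).

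Atg5 (chr10:44268358-44364291, plus strand), the acceptor of the ATG12 conjugate, rose in 7 comparisons. Atg5 in the Odc table measured 22.5, 21.8, 20.5 and 25.2 CPM in WT and 23.1, 34.3, 30.96 and 34.9 CPM in Odc-/- TH1 libraries, and 16.04, 16.8, 17.2 and 21.6 CPM in WT and 31.01, 29.6 and 32.04 CPM in Odc-/- TH2 libraries. For TH17 cells, Atg5 gave 22.97, 25.2, 22.2 and 27.9 CPM in WT and 29.4, 30.2, 29.1 and 30.3 CPM in Odc-/- libraries, and for Treg cells 23.2, 28.2, 23.2 and 31.3 CPM in WT and 28.7, 35.9, 32.2 and 33.9 CPM in Odc-/- libraries. Odc-/- libraries were above WT in TH2 and TH17 cells and overlapped WT in TH1 and Treg cells. Atg5 in the Dohh table was at 24.8, 22.8 and 24.8 CPM in WT and 38.8, 47.97 and 30.4 CPM in Dohh-/- TH1 libraries, and at 20.002, 19.8 and 22.1 CPM in WT and 30.6, 31.1 and 41.1 CPM in Dohh-/- TH2 libraries. Atg5 in TH17 cells was at 20.3, 21.1 and 26.6 CPM in WT and 33.8, 43.2 and 50.5 CPM in Dohh-/- libraries, and in Treg cells at 27.2, 24.4 and 30.3 CPM in WT and 40.5, 43.7 and 50.4 CPM in Dohh-/- libraries. All Dohh-/- libraries were above WT. Its log2 fold changes were 0.46, 0.79, 0.28 and 0.30 in the Odc table (SE 0.12 to 0.13, adjusted p = 0.0591 in TH17 cells) and 0.69, 0.73, 0.91 and 0.72 in the Dohh table (SE 0.18), and the Odc-/- Treg rise did not pass without replicate 3 (adjusted p = 0.0606). Atg5 lost its call in Odc-/- Treg cells without WT replicates 1 or 3 or Odc-/- replicates 2 or 4 (0.24 to 0.29).

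Atg12, the ubiquitin-like protein joined to ATG5, fell in 7 comparisons. Atg12 in the Odc table measured 60.8, 56.3, 65.3 and 52.1 CPM in WT and 41.4, 33.5, 28.99 and 33.03 CPM in Odc-/- TH1 libraries, and 56.8, 53.1, 52.1 and 48.5 CPM in WT and 29.9, 34.1 and 31.8 CPM in Odc-/- TH2 libraries. For TH17 cells, Atg12 gave 51.7, 52.9, 43.9 and 38.2 CPM in WT and 40.5, 32.7, 28.1 and 33.3 CPM in Odc-/- libraries, and for Treg cells 60.02, 58.7, 54.4 and 36.6 CPM in WT and 32.9, 37.4, 30.2 and 43.01 CPM in Odc-/- libraries. The groups were apart in TH1 and TH2 cells and overlapped in TH17 and Treg cells. Atg12 in the Dohh table was at 33.5, 34.2 and 37.2 CPM in WT and 18.1, 20.2 and 32.8 CPM in Dohh-/- TH1 libraries, and at 38.7, 42.3 and 52.5 CPM in WT and 32.4, 27.1 and 26.4 CPM in Dohh-/- TH2 libraries. Atg12 in TH17 cells was at 45.8, 39.7 and 48.7 CPM in WT and 36.3, 36.2 and 24.3 CPM in Dohh-/- libraries, and in Treg cells at 53.9, 38.4 and 51.3 CPM in WT and 26.8, 24.8 and 22.3 CPM in Dohh-/- libraries. All Dohh-/- libraries were below WT. The log2 fold changes were -0.78, -0.72, -0.47 and -0.55 in the Odc table (SE 0.14 to 0.16) and -0.56, -0.63, -0.46 and -0.96 in the Dohh table (SE 0.20, adjusted p = 0.0585 in TH17 cells), and with Dohh-/- replicates 2 and 3 left out the TH2 fall did not pass (adjusted p = 0.0834). Atg7, the enzyme that activates both ubiquitin-like proteins, rose by 0.77, 0.44, 0.44 and 0.43 in the Dohh table and, outside Treg cells (0.22, adjusted p = 0.0873), by 0.72, 0.58 and 0.37 in the Odc table, and the Dohh-/- rises in TH2 and TH17 cells did not pass with replicates 2 and 3 left out. Atg16l1, the scaffold of the ATG12 and ATG5 conjugate, rose only in Odc-/- Treg cells (0.31 ± 0.08). Of the 5 conjugation members, 3 rose and 1 fell in TH1, TH2 and Treg cells of both tables. In TH17 cells 2 rose and 1 fell with Odc-/-, and 3 rose and 0 fell with Dohh-/-. Over all genes, 25.6% to 32.9% rose and 22.2% to 29.3% fell in the Odc subsets. In the Dohh subsets 23.8% to 28.4% rose and 21.5% to 25% fell. The conjugation members were not tested against all genes. Atg12 lost its call in Dohh-/- TH1 cells without WT replicates 1, 2 or 3 or Dohh-/- replicates 1 or 2 (-0.37 to -0.58) and in Dohh-/- TH2 cells without WT replicate 3 or Dohh-/- replicates 2 or 3 (-0.50 to -0.60). Atg7 lost its call in Dohh-/- TH2 cells without WT replicates 2 or 3 or Dohh-/- replicates 2 or 3 (0.32 to 0.44), in Dohh-/- TH17 cells without WT replicates 1, 2 or 3 or Dohh-/- replicate 3 (0.35 to 0.46) and in Dohh-/- Treg cells without WT replicates 1, 2 or 3 or Dohh-/- replicates 1 or 2 (0.30 to 0.39).

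**Figure D3:**
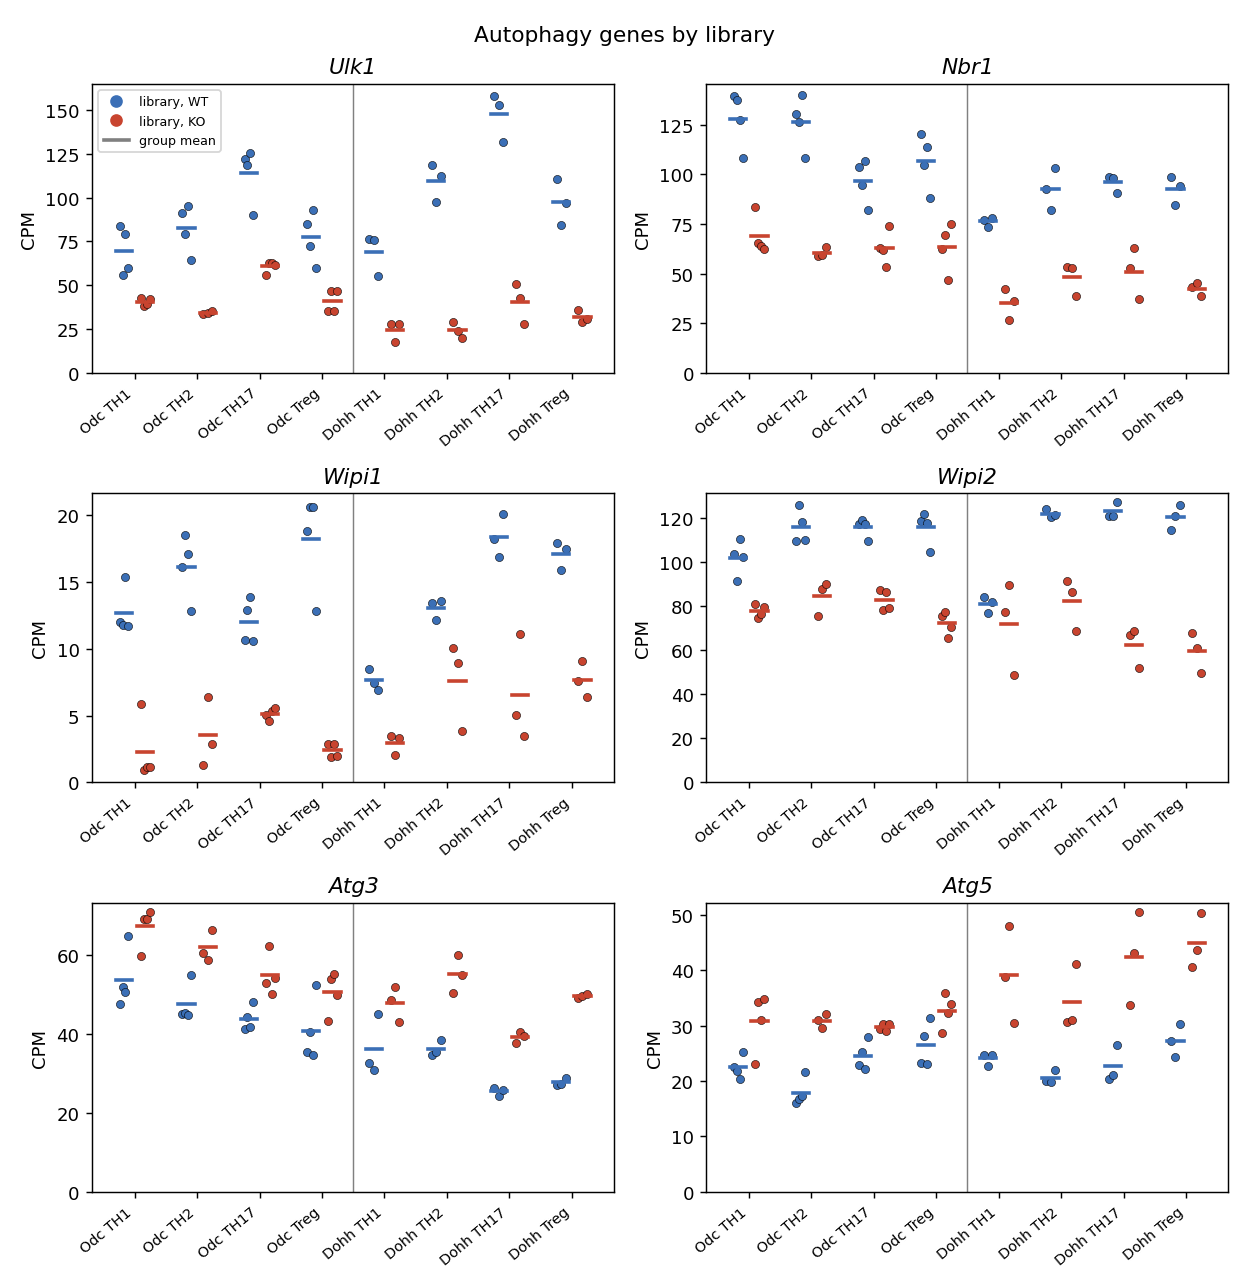
Level of Ulk1, Nbr1, Wipi1, Wipi2, Atg3 and Atg5 in CPM (linear axis from 0) by subset, table and genotype, with 1 point per library (blue WT, red deleted) and the group mean as a line. WT points of Ulk1 and Nbr1 lie above all deleted points of their subset, and most points of Atg3 and Atg5 lie the other way round.

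ATG8 proteins coat the membrane and bind cargo, and the effect on Map1lc3a and Gabarapl1 differed between subsets in both tables by the interaction test. Map1lc3a (chr2:155276297-155278073, plus strand), a low-abundance LC3 form, fell in TH2 cells of both tables and in Dohh-/- Treg cells and rose in Odc-/- TH17 cells. Map1lc3a in the Odc table measured 6.07, 3.98, 6.39 and 4.29 CPM in WT and 4.08, 3.97, 2.96 and 3.08 CPM in Odc-/- TH1 libraries, and 9.55, 10.9, 13.6 and 12.2 CPM in WT and 3.31, 2.68 and 3.10 CPM in Odc-/- TH2 libraries. For TH17 cells, Map1lc3a gave 4.18, 5.74, 5.31 and 6.16 CPM in WT and 6.38, 30.2, 16.3 and 17.6 CPM in Odc-/- libraries, and for Treg cells 9.10, 13.02, 10.8 and 9.21 CPM in WT and 11.6, 13.1, 17.2 and 13.6 CPM in Odc-/- libraries. Odc-/- TH2 libraries were below WT and Odc-/- TH17 libraries above it, with replicate 1 of the latter only slightly above. Map1lc3a in the Dohh table was at 9.36, 11.8 and 8.41 CPM in WT and 3.88, 9.78 and 7.28 CPM in Dohh-/- TH1 libraries, and at 22.4, 26.1 and 20.1 CPM in WT and 6.92, 6.83 and 4.56 CPM in Dohh-/- TH2 libraries. Map1lc3a in TH17 cells was at 19.8, 18.8 and 20.9 CPM in WT and 18.9, 12.1 and 17.4 CPM in Dohh-/- libraries, and in Treg cells at 28.4, 39.8 and 31.6 CPM in WT and 8.95, 11.4 and 8.76 CPM in Dohh-/- libraries. The TH2 and Treg groups were apart, and those of TH1 and TH17 cells overlapped. Map1lc3a log2 fold changes were -0.56, -1.93, 1.72 and 0.40 in the Odc table (SE 0.26 to 0.33) and -0.51, -1.90, -0.30 and -1.77 in the Dohh table (SE 0.25 to 0.27). The adjusted p was 2.07e-05 and 2.17e-05 in Odc-/- TH2 and TH17 cells and 9.51e-06 and 9.61e-06 in Dohh-/- TH2 and Treg cells. With Dohh-/- replicates 2 and 3 left out it passed in TH1 cells too, at -1.32 (adjusted p = 0.000825).

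Gabarapl1 (chr6:129533160-129542346, plus strand), a GABARAP family protein, fell in Odc-/- TH1, TH2 and TH17 cells and rose in Dohh-/- TH1 cells. Gabarapl1 in the Odc table measured 92.9, 85.2, 94.8 and 93.6 CPM in WT and 74.1, 76.97, 84.6 and 73.1 CPM in Odc-/- TH1 libraries, and 104, 115, 114 and 136 CPM in WT and 63.9, 69.95 and 60.6 CPM in Odc-/- TH2 libraries. For TH17 cells, Gabarapl1 gave 149, 149, 149.8 and 149.8 CPM in WT and 89.8, 113, 101 and 114 CPM in Odc-/- libraries, and for Treg cells 65.1, 73.2, 70.2 and 72.7 CPM in WT and 58.1, 77.8, 70.2 and 62.3 CPM in Odc-/- libraries. In the 3 subsets where it fell the groups were apart. Gabarapl1 in the Dohh table was at 77.3, 69.5 and 84.000 CPM in WT and 112, 109 and 80.5 CPM in Dohh-/- TH1 libraries, and at 87.2, 87.02 and 86.1 CPM in WT and 71.9, 72.7 and 71.5 CPM in Dohh-/- TH2 libraries. Gabarapl1 in TH17 cells was at 105, 105 and 89.7 CPM in WT and 100.4, 84.9 and 82.6 CPM in Dohh-/- libraries, and in Treg cells at 90.000, 84.98 and 83.1 CPM in WT and 100.4, 95.6 and 108 CPM in Dohh-/- libraries. Dohh-/- TH2 libraries were below WT, Treg ones above it, and 1 of 3 TH1 libraries lay within the WT range. Its log2 fold changes were -0.25, -0.85, -0.52 and -0.066 in the Odc table (SE 0.09 to 0.10) and 0.39, -0.27, -0.16 and 0.23 in the Dohh table (SE 0.13), with an adjusted p of 0.0193 in Dohh-/- TH1 and 0.103 in Dohh-/- TH2 cells. Gabarap, its close relative, fell in Odc-/- TH1 (-0.38 ± 0.11) and TH2 cells (-0.62 ± 0.12), and with Dohh-/- replicates 2 and 3 left out it passed in Dohh-/- TH1 cells at -0.86 (adjusted p = 8.17e-05). Gabarapl2 fell in Treg cells of both tables (-0.27 and -0.50), neither past the test when the libraries with most macrophage RNA were left out, and Map1lc3b, the most used LC3, fell in Odc-/- Treg cells (-0.36 ± 0.10). Leaving the same libraries out added calls for Gabarapl2 in Dohh-/- TH17 (0.43) and for Map1lc3b in Odc-/- TH2 cells (-0.32). Gabarapl1 lost its call in Odc-/- TH1 cells without Odc-/- replicate 4 (-0.22) and in Dohh-/- TH1 cells without WT replicate 2 or Dohh-/- replicates 1 or 2 (0.32 to 0.33). Gabarapl2 lost its call in Odc-/- Treg cells without WT replicate 2 (-0.19) and in Dohh-/- Treg cells without Dohh-/- replicate 2 (-0.42).

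Of the cargo receptors, Nbr1 fell in all 8 comparisons while Sqstm1 passed the test in 1. Nbr1 (chr11:101552149-101581951, plus strand) encodes a receptor for ubiquitinated cargo. Nbr1 in the Odc table measured 139, 137, 127 and 108 CPM in WT and 83.4, 65.3, 63.6 and 62.4 CPM in Odc-/- TH1 libraries, and 130.5, 126, 139.8 and 108 CPM in WT and 58.8, 59.2 and 63.3 CPM in Odc-/- TH2 libraries. For TH17 cells, Nbr1 gave 103, 94.4, 107 and 82.1 CPM in WT and 62.9, 61.7, 53.1 and 74.04 CPM in Odc-/- libraries, and for Treg cells 120.3, 104, 114 and 87.9 CPM in WT and 62.2, 69.5, 46.9 and 75.1 CPM in Odc-/- libraries. All Odc-/- libraries were below WT, and the TH1 library numbered 1 was the highest of its group. Nbr1 in the Dohh table was at 77.01, 73.6 and 77.9 CPM in WT and 42.01, 26.4 and 36.4 CPM in Dohh-/- TH1 libraries, and at 92.7, 81.9 and 103 CPM in WT and 53.2, 52.8 and 38.8 CPM in Dohh-/- TH2 libraries. Nbr1 in TH17 cells was at 98.5, 98.2 and 90.8 CPM in WT and 52.96, 62.6 and 37.02 CPM in Dohh-/- libraries, and in Treg cells at 98.6, 84.7 and 94.1 CPM in WT and 42.97, 45.3 and 38.6 CPM in Dohh-/- libraries. All Dohh-/- libraries were below WT. Nbr1 log2 fold changes were -0.90, -1.06, -0.62 and -0.75 in the Odc table (SE 0.13 to 0.15, adjusted p 1.89e-06 to 0.000515) and -1.12, -0.94, -0.91 and -1.13 in the Dohh table (SE 0.18, adjusted p 2.80e-05 to 0.000293). Without the Odc-/- TH1 library numbered 1 the TH1 value was -1.02. Optn, a receptor for damaged mitochondria and bacteria, fell in Odc-/- TH2 cells (-1.62 ± 0.21) and rose in Dohh-/- TH1, TH17 and Treg cells (0.93, 1.44 and 1.32). Sqstm1, the receptor p62, fell only in Odc-/- TH2 cells (-0.30 ± 0.10), and with replicates 2 and 3 left out it passed in Dohh-/- TH2 cells at 0.36. Sqstm1 lost its call in Odc-/- TH2 cells without Odc-/- replicate 2 (-0.19).

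**Figure D4:**
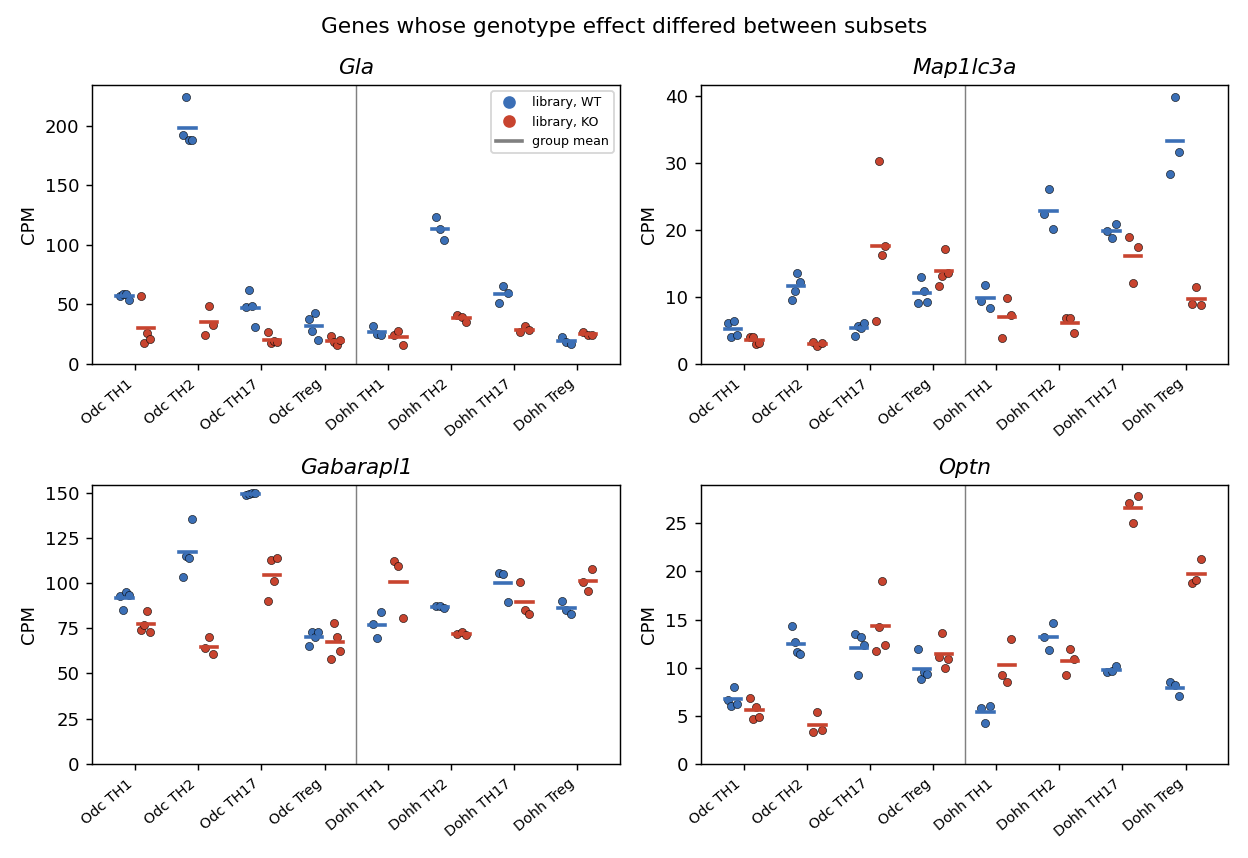
Level of Gla, Map1lc3a, Gabarapl1 and Optn in CPM (linear axis from 0) by subset, table and genotype, with 1 point per library (blue WT, red deleted) and the group mean as a line. Gla is highest in WT TH2 cells and lower in deleted TH2 cells, and Map1lc3a falls in TH2 cells but is higher in Odc-/- than in WT TH17 cells.

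Whether an effect differed between subsets was tested in 1 model per table. The Odc effect differed for 16 of 37 members (all genes 34.8%), among them Ctsd, Ctsz, Hexa, Gla, Atp6v0e, Map1lc3a, Gabarapl1, Wipi1 and Optn. The Dohh effect differed for 7 of 36 (all genes 17.9%): Hexa, Gla, Atp6v1h, Map1lc3a, Gabarapl1, Wipi2 and Optn. Map1lc3a had an interaction adjusted p of 1.94e-06 in the Odc and 0.00331 in the Dohh table, and Gla of 0.00491 and 5.44e-05. The falls of Ulk1 and Nbr1 and the rise of Atg3 did not pass it in either table (adjusted p of 0.273 and 0.284 for Ulk1, 0.246 and 0.822 for Nbr1, and 0.986 and 0.342 for Atg3), which does not show that the effect is equal in the subsets. Same-numbered libraries of 1 genotype deviated together across subsets in the Odc table, and with a replicate block 24 of 37 members in the Odc and 13 of 36 in the Dohh table passed this test. With the libraries of 1 replicate number left out it passed for 6 to 17 members in the Odc table (6 without number 2) and for 3 to 5 in the Dohh table (3 without number 2, 4 without number 3).

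The 2 deletions were compared by the difference of their effects, each within its own table, in a joint model. The effects differed for 6 members in TH1 cells (all genes 21.9%), 5 in TH2 (18.4%), 9 in TH17 (24.5%) and 11 in Treg cells (29.9%), of 36 tested. Ctsd, Ulk1 and Optn differed in all 4 subsets. Ulk1 fell less with Odc-/- than with Dohh-/-, the Odc effect minus the Dohh effect being 0.69 ± 0.25 (adjusted p = 0.0435) in TH1, 0.92 ± 0.26 (adjusted p = 0.0103) in TH2, 0.89 ± 0.25 (adjusted p = 0.00664) in TH17 and 0.66 ± 0.25 (adjusted p = 0.0407) in Treg cells. For Ctsd the same difference was -1.81 ± 0.26 (adjusted p = 2.34e-06), -1.37 ± 0.27 (adjusted p = 0.000324), -1.43 ± 0.26 (adjusted p = 7.04e-05) and -1.04 ± 0.26 (adjusted p = 0.00187), the rise being larger with Dohh-/-. For Optn it was -1.23 ± 0.26 (adjusted p = 0.000776), -1.31 ± 0.27 (adjusted p = 0.000456), -1.26 ± 0.25 (adjusted p = 0.000171) and -1.15 ± 0.25 (adjusted p = 0.000346). Atg13 differed in TH1, TH17 and Treg cells, with deeper falls in Dohh-/- cells, and Gabarapl1 in TH1, TH2 and TH17 cells. The deletions were measured in separate tables, with other mice and depths, and deletion and table cannot be told apart in these differences.

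Without deletion, the 4 subsets differed in 31 of 37 members in the Odc table (all genes 71.1%) and in 18 of 36 in the Dohh table (40.1%), the latter 11, 9 and 13 without the libraries numbered 1, 2 and 3. Per kilobase of exon, Ctsd was among the highest members, with 164, 95.1, 89.7 and 71.2 CPM per kilobase in WT TH1, TH2, TH17 and Treg cells of the Odc table, and Mitf the lowest, with 0.286, 0.287, 0.303 and 0.241. Gla was at 17.5, 60.7, 14.5 and 9.90 CPM per kilobase in the Odc and 8.31, 34.8, 18.02 and 5.96 in the Dohh table, highest in TH2 cells in both. Map1lc3a was at 4.39, 9.81, 4.53 and 8.92 and 8.33, 19.4, 16.8 and 28.2 CPM per kilobase in the same order, and Ulk1 at 10.7, 12.7, 17.6 and 11.9 and 10.7, 16.9, 22.7 and 14.99, highest in TH17 cells in both tables.

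A further 139 genes of the same pathways, of which 137 were tested in the Odc and 136 in the Dohh table, were set beside the members. In order of TH1, TH2, TH17 and Treg cells, first of the Odc and then of the Dohh table, there were 28, 27, 38, 45, 21, 22, 37 and 36 that rose and 55, 54, 44, 51, 47, 41, 44 and 40 that fell, to be read against the shares of all genes above. Of 138 tested in either table, 16 rose and 26 fell in at least 6 of the 8 comparisons. How many of all genes did so was not counted, so these numbers are not read as a result about the pathway. In the same order of comparisons, other core autophagy genes fell in 15, 13, 17, 16, 13, 13, 15 and 14 and rose in 3, 1, 3, 5, 5, 2, 6 and 3 cases of 30 (29 in the Dohh table), and the other subunits of the vacuolar ATPase rose in 7, 6, 9, 9, 4, 3, 9 and 4 and fell in 1, 3, 0, 2, 2, 1, 0 and 2 of 14 (13 in the Dohh table), the rises in Dohh-/- TH1, TH2 and Treg cells being near the share of all genes. Other lysosomal hydrolases rose in 5, 5, 8, 10, 2, 3, 7 and 12 cases and fell in 15, 16, 8, 9, 12, 6, 7 and 2 of 31 in the Odc and 32 in the Dohh table. Other lysosomal membrane and transport genes, 23 in each table, rose in 2, 3, 7, 7, 3, 5, 8 and 8 and fell in 9, 8, 5, 8, 7, 8, 5 and 9 cases. Other receptors, 11 in each, rose in 1, 2, 1, 1, 1, 3, 1 and 2 and fell in 7, 5, 7, 8, 4, 4, 5 and 4, and the 28 mTORC1 and Rag regulators rose in 10, 10, 10, 13, 6, 6, 6 and 7 and fell in 8, 9, 7, 8, 9, 9, 12 and 9.

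The lowest mean log2 fold changes among those that fell in all 8 were those of Calcoco1, an autophagy receptor, and Tecpr1, a tether between autophagosome and lysosome. Calcoco1 had log2 fold changes of -1.91, -1.36, -1.70 and -2.05 in the Odc and -1.98, -2.24, -1.48 and -3.49 in the Dohh table. In Dohh-/- TH1 cells, Calcoco1 had 24, 23 and 175 counts over replicates 1 to 3, against 385, 348 and 312 in WT. Its fold there depends on the library. Tecpr1 had -1.36, -1.58, -1.42 and -1.75 and -1.61, -1.64, -2.42 and -3.07. Rragd, a GTPase that passes amino acid signals to mTORC1, had -1.62, -1.47, 0.29 and -0.51 and -3.34, -2.67, -2.36 and -1.61. All passed the test except Odc-/- TH17 cells and, without Odc-/- replicate 3, Odc-/- Treg cells. Ctsf, another cathepsin, had -2.89, -3.42, 0.81 and 0.85 and -2.96, -3.99, -3.30 and -2.80, past the test except in Odc-/- TH17 and Treg cells. In Dohh-/- TH1 cells, Ctsf had 3, 7 and 39 counts over replicates 1 to 3, against 209, 145 and 120 in WT. Rragd had 21, 10 and 2 counts there, against 171, 135 and 111. These folds depend on the library. Gusb, which encodes beta-glucuronidase, rose in all 8, by 1.17, 1.31, 0.80 and 1.43 and 0.81, 1.41, 1.95 and 1.79. Arsb, an arylsulfatase, had 0.60, 1.38, 0.94 and 0.92 and 2.42, 2.58, 0.58 and 1.44 and missed the test in Dohh-/- TH17 cells (adjusted p = 0.171). In Dohh-/- TH1 cells, Arsb had 692, 226 and 1408 counts over replicates 1 to 3, against 184, 190 and 133 in WT. Ctsh, a cathepsin, had 2.94, 1.72, 1.75 and 2.51 and 2.51, 1.53, 4.63 and 4.69, with no call in Dohh-/- TH1 and TH2 cells (adjusted p of 0.156 and 0.224). With Dohh-/- replicates 2 and 3 left out, Ctsh stood at 1.46 in TH17 and 1.43 in Treg cells, both past the test, and its TH1 value turned to -1.08 (adjusted p = 0.408). Wdfy3, an adaptor for the clearance of aggregates, also rose in 7 comparisons, but its WT libraries held at most 8 counts and no fold is given for it. Without Odc-/- replicate 3 it did not pass the low-count filter in the Odc table. It thus entered the Odc tests only through deleted libraries, and its Odc rises are not read as results. The counts of other receptors above include them. Its Dohh-/- Treg rise became smaller with Dohh-/- replicates 2 and 3 left out, which leaves 1 Dohh-/- library.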

How the data were processed

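The analysis covers 55 RNA-seq libraries of CD4+ T cells, prepared with a stranded mRNA kit. The authors deposited counts, whole numbers of reads per gene and library, as 1 table for the Odc and 1 for the Dohh experiment. The submitters' processing notes name STAR, featureCounts, DESeq2 and deepTools and the build mm10. The annotation release and strand setting of the counting are not given in the sources used here. Gene names and positions were taken from GENCODE for GRCm38.

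Each table was fitted as 8 groups with edgeR 4.0.16 (quasi-likelihood test, TMM scaling, low-count filter, robust spread) in R 4.3.3, and p-values were adjusted by Benjamini-Hochberg over all 13839 (Odc), 13897 (Dohh) or, for the comparison of both, 12924 genes tested. The study's own methods use DESeq2 with a fold above 2, which was run as an alternative (DESeq2 1.42.0), as were other scalings, filters and fits, and each library left out. The program was tested on simulated data. CPM are counts scaled by the TMM-adjusted library size. The labels do not tie libraries to separate mice, so p-values measure the spread between these libraries. The Odc-/- TH2 replicate numbered 1 was not analysed here.

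The members, gene lists and marker lists were chosen with earlier results of these data known. Values per library are given for the TFEB family, for members past the test in 1 direction in all 8 comparisons, for the 3 members of each table with the largest mean change among those past the test in at least 3 subsets, and for 1 or 2 members of each role with the smallest median adjusted p. Of the other pathway genes, the 4 with the highest and the 4 with the lowest mean change among those past the test in 1 direction in at least 6 comparisons are named. Optn, Hexa, Ctss and the remaining members are given by their fold changes. The planned protein comparison of the ATG8 family was not made. The result of 1 marker check is not reported here.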

Additional observations from a re-analysis of the deposited data

Results flagged for a closer look

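Of 126 groups of 4 libraries examined among the members with values per library, 10 held a library far from the others, where chance alone sets apart about 1 in 20. In the Odc-/- TH1 group the library numbered 1 stood apart for 3 genes: Wipi1 was at 5.89 CPM (others 0.926 to 1.13), Nbr1 at 83.4 CPM (others 62.4 to 65.3) and Atg3 at 59.95 CPM (others 69.1 to 71.0). Its B cell and antigen-presenting cell markers summed to 1336 CPM (others 438 to 524) and its macrophage markers to 35.0 CPM (others 10.9 to 19.7). Its basophil and mast cell markers were the lowest, at 29.9 CPM (others 61.4 to 218). Whether these go together was not tested. In the Odc-/- TH17 group, Gla was at 27.0 CPM in replicate 1 (others 17.4 to 19.0). Among WT libraries numbered 4, Tfe3 in TH17 cells was at 66.0 CPM (others 59.2 to 60.1), Lamp1 in TH17 cells at 158.0 CPM (others 124 to 127), Ctsz in TH1 cells at 182 CPM (others 123 to 128) and Atg3 in TH2 cells at 55.1 CPM (others 44.8 to 45.4). Gla in the WT TH2 library numbered 2 was at 224 CPM (others 188 to 192), and Wipi1 in the WT TH1 library numbered 3 at 15.4 CPM (others 11.7 to 12.0).

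The genotype effect differed between subsets, by edgeR's interaction test, for 7 of these members in the Odc table, with an adjusted p of 1.94e-06 for Map1lc3a, 5.43e-06 for Ctsd, 0.000336 for Gabarapl1, 0.000776 for Ctsz, 0.00444 for Atp6v0e, 0.00491 for Gla and 0.0444 for Wipi1. In the Dohh table it differed for 4, with an adjusted p of 5.44e-05 for Gla, 0.00331 for Map1lc3a, 0.035 for Gabarapl1 and 0.0449 for Wipi2.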

How the results depend on the processing

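Of 161 calls of members in the 8 comparisons, 114 passed under every alternative run. Over all alternatives, 2365 of 2565 values of these calls passed in the same direction, 200 did not pass and 0 passed in the other direction. The calls of Ulk1 and Nbr1 passed under all alternatives, in 127 of 127 values each, and those of Atg3 in 100 of 127. With a fold above 2 required as well, the members past the test numbered 1, 7, 5 and 4 in the Odc subsets TH1, TH2, TH17 and Treg and 4, 4, 10 and 11 in the Dohh subsets. In Dohh-/- TH1 cells 17 members passed, and 10 with only the 2 groups compared in the fit, 7 with a replicate block added to that, and 11 at an adjusted p below 0.01. For the effect that differs between subsets, the Odc count was 16, and 6 to 17 with each replicate left out (6 without replicate 2). The Dohh count was 7, and 3 to 5 with each replicate left out, 13 with the replicate block and 4 at an adjusted p below 0.01. The WT subsets of the Dohh table differed in 18 members, and in 9 to 13 with each replicate left out. For the difference between the deletions, leaving out single libraries gave 3 to 8 members in TH1 (main value 6, 3 at an adjusted p below 0.01) and 5 to 9 in TH2 cells (main value 5, 9 with the Odc-/- replicate 3 and the Dohh-/- replicates 2 and 3 left out, a choice made after seeing the data). In Treg cells it was 6 at an adjusted p below 0.01 (main value 11). The causes were not tested.

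Same-numbered WT and deleted libraries of a subset had correlations of -0.0858 to 0.196 in the Odc and -0.0272 to 0.136 in the Dohh table, with 5 of 15 and 5 of 12 best with their own number, so the numbers were not taken as pairs. Across subsets of 1 genotype, each library's lowest correlation with those of its number was 0.0339 to 0.442 in the Odc table (29 of 31 over 0.1, 24 best with their own number) and -0.265 to 0.284 in the Dohh table (12 and 11 of 24). With the block, the effect differed between subsets for 24 members in the Odc table. With the replicate block in the fit of all groups, 22, 24, 24 and 23 members passed in the Odc and 17, 16, 21 and 21 in the Dohh subsets, with all 161 calls kept and 7 gained. Leaving out Odc-/- replicate 3, or Dohh-/- replicates 2 and 3, was also chosen after seeing the data: 79 of 88 and 64 of 73 calls passed without them, and 1 and 18 calls were gained. Depth limits the low genes: Mitf had at most 22 counts in any WT library.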
